A study of Mus musculus with 3 samples.

Results

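Neutrophils made up 829 of the 19003 cell barcodes kept from injured mouse muscle that carried a polymer implant. They were picked by transcripts alone. A barcode needed at least 10 UMIs of S100a8 and S100a9 together per 10000 UMIs and at least 1 UMI of Csf3r, and it had to lack the transcripts of other cells: Pdgfra and Ly6c2 at 0, and fewer than 5 UMIs per 10000 of C1qa, C1qb and C1qc together and of Mmp12. A UMI, or unique molecular identifier, marks 1 captured RNA molecule, and barcodes with fewer than 500 UMIs or with 20% or more of mitochondrial UMIs were left out beforehand. S100a8 and S100a9 encode the calcium-binding proteins that fill neutrophil cytoplasm, and Csf3r is the receptor for the growth factor G-CSF.

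All samples belonged to 1 group: wildtype C57BL/6 mice whose quadriceps had lost a large volume of muscle and had received polycaprolactone particles, with tissue collected at week 6. Polycaprolactone is a slowly degrading polyester used as a biomaterial. Dead cells were depleted, cells with and without the leukocyte protein CD45 were parted on magnetic beads and put back together 1:1, and 3 droplet libraries, called replicates 1, 2 and 3, were sequenced. There was no group without an implant, so each comparison below sets neutrophils against other cells of the same libraries or against each other. The labels do not say whether the replicates were separate animals, so p-values speak only of the variation among 3 libraries, and that variation may be technical.

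Neutrophils are short-lived granulocytes that leave the bone marrow filled with granules of proteases and antimicrobial proteins, enter damaged tissue through chemokine and formyl peptide receptors, and there release cytokines and chemokines. They are known as the earliest cells at a wound or an implanted material, and fewer are usually found once the foreign body response is led by macrophages. As they age or become activated in tissue, their granule transcripts decline while those for inflammatory mediators rise.

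Replicates 1, 2 and 3 held 419, 269 and 141 neutrophils. Their shares of the kept barcodes were 7.06% (95% exact binomial interval 6.42 to 7.74), 3.25% (2.88 to 3.66) and 2.94% (2.48 to 3.46), or 4.42% ± 2.29 (mean ± SD, n = 3). These intervals cover counting error only. Replicate 1 stood above the other two, whose intervals overlapped. The 1:1 remix of cells with and without CD45 and the gate both enter these shares, so they are not the abundance of neutrophils in the tissue. Of 882, 561 and 334 barcodes that reached the S100 limit, 780, 486 and 265 also had Csf3r. The exclusions then left the 829 members. Of the barcodes with both, 231, 128 and 50 failed on Ly6c2 and 128, 75 and 73 on C1q, and a barcode could fail on more than 1 gene.

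Markers that the gate had not used are described next. They were chosen with earlier results of these data known and are no independent check of the label. Il1f9 (interleukin-36 gamma) and Cxcl2 (a chemokine that attracts neutrophils) stood at 2701, 2150.2 and 2749 CPM and 20591, 15451 and 17000.4 CPM, where CPM is the usual depth-scaled unit, here of UMIs summed over the class in each library. Epx, Prg2, Il5ra and Alox15, which mark eosinophils, were at 0 in all 829 barcodes. The whole eosinophil list of 6 genes summed to 0.0758, 0.0503 and 0.0300 UMIs per 10000 in neutrophils, 0.00403, 0 and 0.0104 in monocytes and 0.0423, 0.0323 and 0.0457 in macrophages. Siglecf, a member of it, had a UMI in 10 of the 829 barcodes. Early granule genes of the bone marrow stage (Mpo, Elane, Prtn3, Ctsg, Prss57 and Ms4a3) were too low to be tested in any comparison. Just below the S100 limit, between 5 and 10 UMIs per 10000, lay 8 barcodes, just above it, up to 20, lay 18, and 776 of the 829 exceeded 50. The 8 had 0.564 UMIs of Cxcr2 per 10000, the 18 had 0.928 and the 776 had 4.54, while Cd74, an antigen presentation gene of other leukocytes, stood at 46.8, 79.2 and 10.1.

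A group of large barcodes among the members did not look like the rest. The 95 neutrophil barcodes over 10000 UMIs (45, 34 and 16 per replicate) were 10.7%, 12.6% and 11.3% of the members but gave 27.6%, 34.2% and 32.3% of their UMIs. They had 12.2, 12.3 and 28.1 UMIs of H2-Ab1 per 10000, against 0.289, 0.831 and 0.796 in the 734 smaller ones, and 28.1, 29.6 and 67.5 UMIs of Cd74 against 1.01, 1.71 and 2.31. H2-Ab1 encodes an MHC class II chain of antigen-presenting cells. Neutrophil genes were lower in them: Cxcl2 stood at 71.4, 49.1 and 50.6 per 10000 against 184.9, 173.8 and 179.7. Among the top doublet scores of their libraries were 8.89%, 11.8% and 6.25% of the large barcodes and 1.07%, 0.426% and 0% of the smaller ones. For each comparison the counts over all genes are also given without the large barcodes, and so are values of some lists and genes, a choice made after seeing the data.

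**Figure D1:**
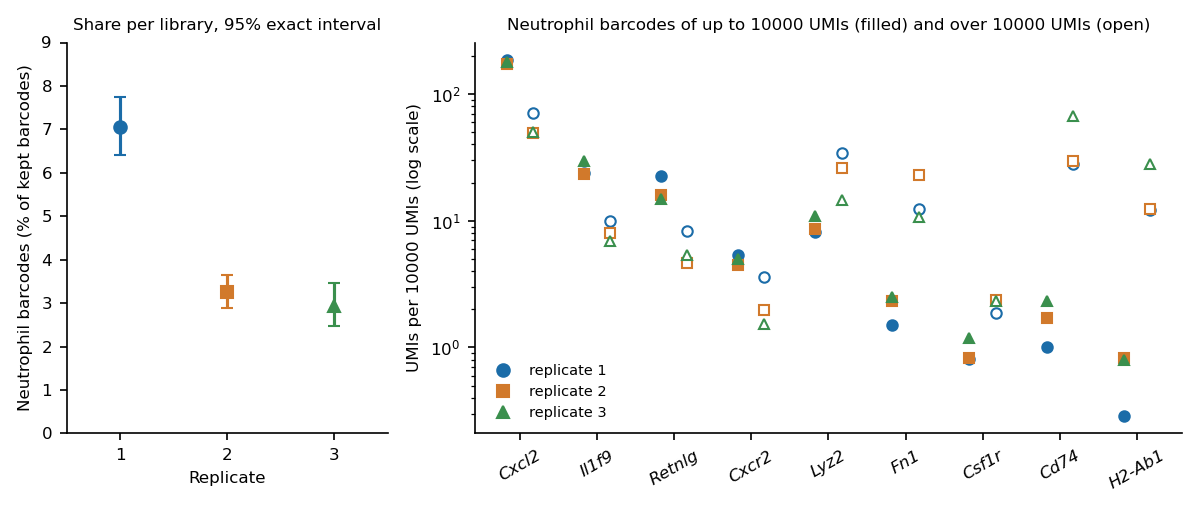
Left, neutrophil barcodes as percent of kept barcodes in each of 3 libraries, with exact 95% binomial intervals. Right, UMIs per 10000 (log scale) of 9 genes in neutrophil barcodes of up to 10000 UMIs (filled) and over 10000 UMIs (open). Cxcl2, Il1f9, Retnlg and Cxcr2 are lower, and Cd74 and H2-Ab1 higher, in the large barcodes of all 3 libraries.

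Transcripts of other cells were present in neutrophil barcodes. Col1a1, Col1a2, Col3a1, Dcn and Lum, matrix genes of fibroblasts, together gave 9.71, 11.3 and 4.65 UMIs per 10000 in neutrophils and 497, 524 and 562 in fibroblasts. Monocytes had 3.03, 8.76 and 3.20 and macrophages 5.81, 8.30 and 6.73. All 5 were called higher in neutrophils than in monocytes in the test described next, and their part in the other results was not tested. Neutrophils had the fewest UMIs of these 4 classes, with a median barcode of 5608, 4467 and 5711 UMIs. The median barcode had 1490, 1317 and 1501 genes. No barcode sequence was shared between neutrophils of different libraries, and 8, 5 and 1 neutrophils were among the top doublet scores.

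Neutrophils were first compared with the monocytes of the same tissue, 297 barcodes with at least 1 UMI of Ly6c2 and of Chil3, with S100 genes below the limit and with the same exclusion of Pdgfra, C1q and Mmp12. Both come from the blood, so the comparison asks which transcripts part the recruited granulocytes from the recruited monocytes. UMIs were summed per library and class and tested with edgeR's quasi-likelihood test, with calls made where the p adjusted by Benjamini-Hochberg was under 0.05 and the difference at least 2-fold. Of 8212 genes tested, 1648 were higher in neutrophils (20.1%) and 1349 lower (16.4%), with a median log2 difference of -0.09 over all genes tested. Without the large barcodes, 1894 (25.1%) were higher and 2306 (30.6%) lower of 7542. Without replicate 1, 786 were lower. The genes of either gate are left out of these counts.

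The second comparison used 2058 macrophages, barcodes with Csf1r, with C1q or Mmp12 at 5 UMIs per 10000 or more, without Ly6c2 and Pdgfra and with S100 genes below the limit, which are the main leukocytes around an implant. Here 2490 of 11207 genes were higher in neutrophils (22.2%) and 2668 lower (23.8%), with a median of -0.20. Without the large barcodes the counts were 2634 (24.1%) and 3812 (34.9%) of 10930. Classes were made from transcripts of the same cells, so the tests say how steadily the classes differed over 3 libraries and are not independent evidence that the classes exist. Both comparisons use the same neutrophils, and their values are given side by side. The list counts below are to be read beside these shares of all genes and those against monocytes, 20.1% higher and 16.4% lower.

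Late granule genes, which are transcribed as neutrophils mature, were mostly far higher in neutrophils where they could be tested. Of the 16 on the list, Ltf, Camp, Ngp, Fcnb and Chit1 were too low to be tested against monocytes, and all of these but Ltf against macrophages. Of 11 tested against monocytes 9 were higher and 2 lower, with a median log2 difference of 4.20, and of 12 tested against macrophages 11 were higher and 1 lower, with a median of 5.57. Retnlg, a resistin-like secreted protein, stood at 2515, 1429.8 and 1456 CPM in neutrophils and 1.37, 1.59 and 3.43 CPM in monocytes, a log2 difference of 9.96 ± 0.28 (SE, n = 3, edgeR adjusted p = 7.5e-11). Lcn2, which binds bacterial iron carriers, stood at 877, 574 and 461 CPM against 1.72, 3.17 and 0 CPM (log2 8.64 ± 0.29, edgeR adjusted p = 2.1e-10). In both genes the lowest neutrophil library was far above the highest monocyte library. The share of all genes without such overlap was not counted.

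Slpi, a secreted inhibitor of neutrophil elastase, was the granule list's most abundant member, at 4278, 3797 and 4084 CPM against 208, 221 and 234 CPM in monocytes (log2 4.20 ± 0.15, edgeR adjusted p = 2.9e-10). The collagenase Mmp8 and the gelatinase Mmp9 were higher by log2 1.93 and 7.59, and Padi4, the enzyme that citrullinates histones in neutrophil extracellular traps, by 2.67. The 2 members below monocytes were Lyz2, the lysozyme of both lineages, at log2 -2.20, and Cd177, a neutrophil surface protein, at -1.98. Olfm4 had 214 UMIs in neutrophils and none in monocytes, which makes it at least 59.3-fold higher when 3 counts over all monocyte sums are taken as the floor. Against macrophages Lyz2 was the only lower member, at log2 -2.67.

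The sequence up to the transcription start of a pair of these genes is shown because granule genes are known targets of C/EBP factors. The letters TTGCNNAA of a C/EBP motif were searched on both strands in the 250 bases before the start of each gene, taken from RefSeq (GRCm38.p6). No build is stated for the count files, so these positions belong to the RefSeq table only. The letters occur before 7 of the 14 late granule genes with an entry and before 9.55% of 27025 genes. Among the 7 are Ltf, Ngp and Fcnb, which were too low to be tested against monocytes. Capitals mark the match, which is a description of letters and not a binding site. Lcn2 is shown at chr2:32387740-32387989 (minus strand) and Mmp8 at chr9:7558179-7558428 (plus strand).
Lcn2: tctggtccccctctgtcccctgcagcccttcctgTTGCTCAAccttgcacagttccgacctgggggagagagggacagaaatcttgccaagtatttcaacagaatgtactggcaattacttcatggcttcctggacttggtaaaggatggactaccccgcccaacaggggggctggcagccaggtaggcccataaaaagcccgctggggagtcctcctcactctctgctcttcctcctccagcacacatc
Mmp8: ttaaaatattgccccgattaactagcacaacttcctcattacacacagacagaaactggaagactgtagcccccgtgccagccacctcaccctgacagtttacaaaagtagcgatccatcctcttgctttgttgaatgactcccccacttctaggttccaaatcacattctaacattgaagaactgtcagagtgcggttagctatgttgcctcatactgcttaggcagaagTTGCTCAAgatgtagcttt

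Receptors that guide neutrophils into tissue were mostly higher: 16 of 19 tested against monocytes and 16 of 20 against macrophages, and none was lower in either. Their median log2 differences were 1.79 and 2.60. Cxcr2, the receptor for Cxcl1, Cxcl2 and Cxcl3, stood at 643, 413 and 463 CPM in neutrophils and 0.867, 0.540 and 0.642 CPM in macrophages (log2 9.50 ± 0.20, edgeR adjusted p = 1.1e-10). Against monocytes, at 5.84, 0.793 and 0.858 CPM, the difference was 7.36 ± 0.28 (edgeR adjusted p = 4.2e-10). The formyl peptide receptor Fpr1 was higher by 6.86 and 6.89 and the complement receptor C5ar1 by 2.62 and 2.71. Ly6g, the antigen commonly used to stain mouse neutrophils, had a low count, at 31.0, 19.3 and 33.2 CPM, but a lower one still in monocytes, at 0.344, 0 and 0.858 CPM.

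Receptors for cytokines, pathogens and antibodies followed, with 13 higher and 1 lower of 25 tested against monocytes and 19 and 1 of 26 against macrophages. Il1r2, a decoy that binds interleukin-1 without signalling, stood at 2235, 1401 and 1577 CPM in neutrophils and 9.54, 9.18 and 14.4 CPM in macrophages (log2 7.30 ± 0.25, edgeR adjusted p = 1.1e-09). The C-type lectin Clec4d, which binds fungal and mycobacterial glycolipids, stood at 4918, 3889 and 4057 CPM against 385, 426 and 361 CPM (log2 3.45 ± 0.19, edgeR adjusted p = 3.5e-08). The lower member in both comparisons was the inhibitory Fc receptor Fcgr2b, at -1.37 and -1.65. Mrgpra2b, a receptor of the Mas-related family, had 1988 UMIs in neutrophils and none in monocytes, at least 551-fold higher by the same floor. Its near copy Mrgpra2a can share reads with it.

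**Figure D2:**
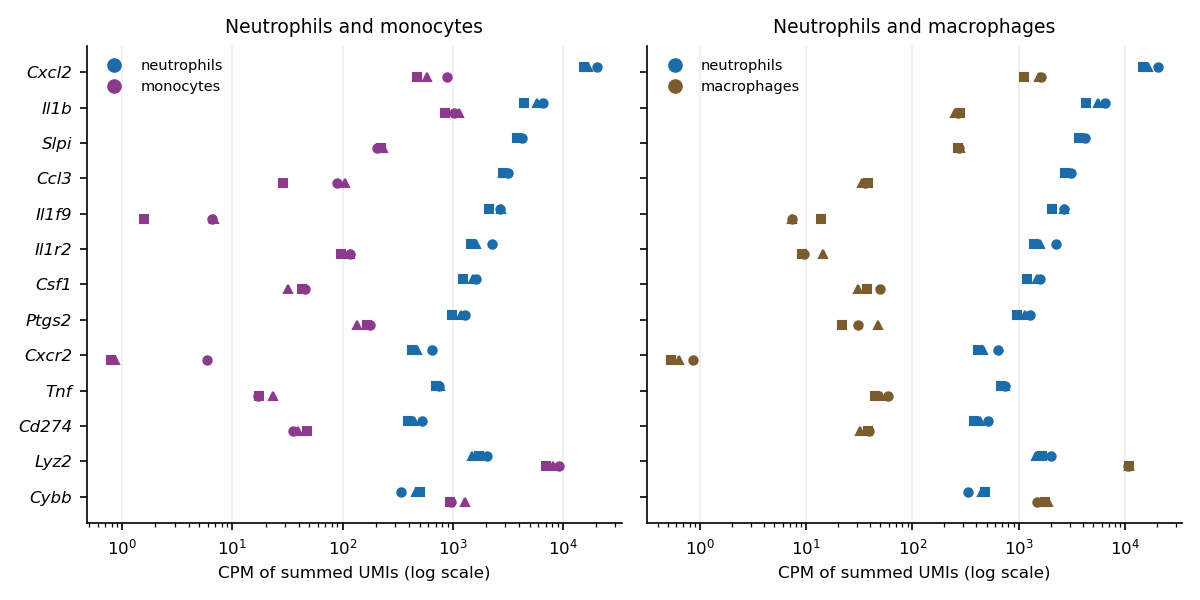
CPM of summed UMIs (log scale) of 13 genes in neutrophils and monocytes (left) and in neutrophils and macrophages (right), with 1 point per library (circle, square and triangle for replicates 1, 2 and 3). Points of the classes do not overlap for any of these genes, and Lyz2 and Cybb are the 2 that are lower in neutrophils. The genes were picked for the figure, and how many of all genes tested show no overlap was not counted.

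Among chemokines, neutrophils differed by which ones they transcribed and not by more of all. Against monocytes 5 of 12 were higher (Cxcl1, Cxcl2, Cxcl3, Ccl3 and Ccl4) and 4 lower (Cxcl10, Cxcl16, Ccl2 and Ccl9), with a median of -0.33. The call of Cxcl10, at -1.32, held in 4 of 12 settings and ended without the large barcodes (-0.89). Cxcl2 was the strongest in absolute terms, and monocytes had 889, 474 and 586 CPM of it (log2 4.80 ± 0.17, edgeR adjusted p = 2.6e-10). Ccl3, which attracts monocytes and lymphocytes, stood at 3155, 2842 and 2888 CPM against 89.3, 28.5 and 105 CPM (log2 5.40 ± 0.28, edgeR adjusted p = 6.8e-09). Ccl4 stood at 3406, 3171 and 2428 CPM against 145, 45.2 and 277 CPM (log2 4.49 ± 0.40, edgeR adjusted p = 9.2e-07). No neutrophil library overlapped a monocyte library in these 3 genes, and how common that was over all genes was not counted.

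Against macrophages 5 of 13 chemokines were higher and 3 lower, with a median of 0.06. Of all genes 22.2% were higher and 23.8% lower, so the count of lower chemokines is near that share. Cxcl2, Ccl3 and Ccl4 were higher there by log2 3.59, 6.33 and 6.79. Cxcl3, which is similar in sequence to Cxcl2, was not called against macrophages, at 1392, 572 and 615 CPM and 865, 822 and 619 CPM (log2 0.06 ± 0.21, edgeR adjusted p = 0.82). Ccl9 and Cxcl16, chemokines of macrophages, stood at log2 -2.93 and -2.45, and at -4.61 and -3.92 without the large barcodes. The third lower member, Ccl6, stood at -1.28 and then at -0.95, under the 2-fold limit. Ccl5 was called higher than in macrophages at 3.96, and without the large barcodes it was not called, at 1.30.

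The stretch before Cxcl2 is shown because chemokine genes are textbook targets of NF-kB. The letters of an NF-kB motif (GGG, any 2 bases, TT, any base and CC, on either strand) were found before 5 of the 7 chemokine genes with a RefSeq entry (Cxcl1, Cxcl2, Cxcl3, Cxcl10 and Ccl9) and before 4.0% of all genes. They occur 2 times before Cxcl2, at chr5:90903649-90903898 (plus strand, GRCm38.p6), and the earlier one begins 97 bases before the start. The 5 genes with these letters include some that were higher and some that were lower in neutrophils.
Cxcl2: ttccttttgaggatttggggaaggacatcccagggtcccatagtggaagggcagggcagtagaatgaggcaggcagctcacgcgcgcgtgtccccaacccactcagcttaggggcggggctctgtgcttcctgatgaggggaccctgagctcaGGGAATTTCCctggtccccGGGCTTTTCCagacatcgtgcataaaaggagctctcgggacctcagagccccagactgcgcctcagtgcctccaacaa

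Cytokine genes were largely higher in neutrophils, with 11 higher and 1 lower of 19 tested against monocytes and 11 and 4 of 21 against macrophages. The interleukin-1 family led by level. Il1b stood at 6446, 4268 and 5611 CPM in neutrophils and 268, 279 and 253 CPM in macrophages (log2 4.33 ± 0.21, edgeR adjusted p = 1.5e-08). Its antagonist Il1rn stood at 3102, 2368 and 2475 CPM against 323, 328 and 257 CPM (log2 3.13 ± 0.17, edgeR adjusted p = 4.2e-08). Agonist, antagonist and decoy receptor of interleukin-1 were thus all more abundant in neutrophils, in every library and against both classes.

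Il1f9 differed most of the cytokines by fold against monocytes, with 6.53, 1.59 and 6.86 CPM in monocytes and 7.42, 13.8 and 7.29 CPM in macrophages (log2 8.91 and 8.10). Csf1, the growth factor that maintains macrophages, stood at 1599.7, 1201 and 1488 CPM in neutrophils and 49.1, 37.5 and 30.6 CPM in macrophages (log2 5.21 ± 0.19, edgeR adjusted p = 1.7e-09). Tnf was higher by 5.29 and 3.81, and Il23a, a subunit of the cytokine that maintains interleukin-17-producing T cells, by 4.95 over monocytes at a low level, 29.0, 31.1 and 28.3 CPM. The 4 members lower than in macrophages were Igf1, Pdgfa, Pdgfb and Spp1. Igf1 stood at -3.13 there and was not called against monocytes, at 0.93. Pdgfa stood at -2.34 and, without the large barcodes, at -3.86. Hbegf, Areg, Tgfb1 and Vegfa were not called against macrophages. With the large barcodes left out, 12 cytokine genes were higher and 3 lower of 18 against monocytes, and 11 and 6 of 21 against macrophages, where Hbegf and Areg were then called lower and Spp1 was not called. Tgfb1 stood at -1.01 against monocytes, a call that ended without replicate 1 (-0.85) or without replicate 3 (-0.99). Vegfa was not called in either comparison, at -0.53 and -0.69.

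**Figure D3:**
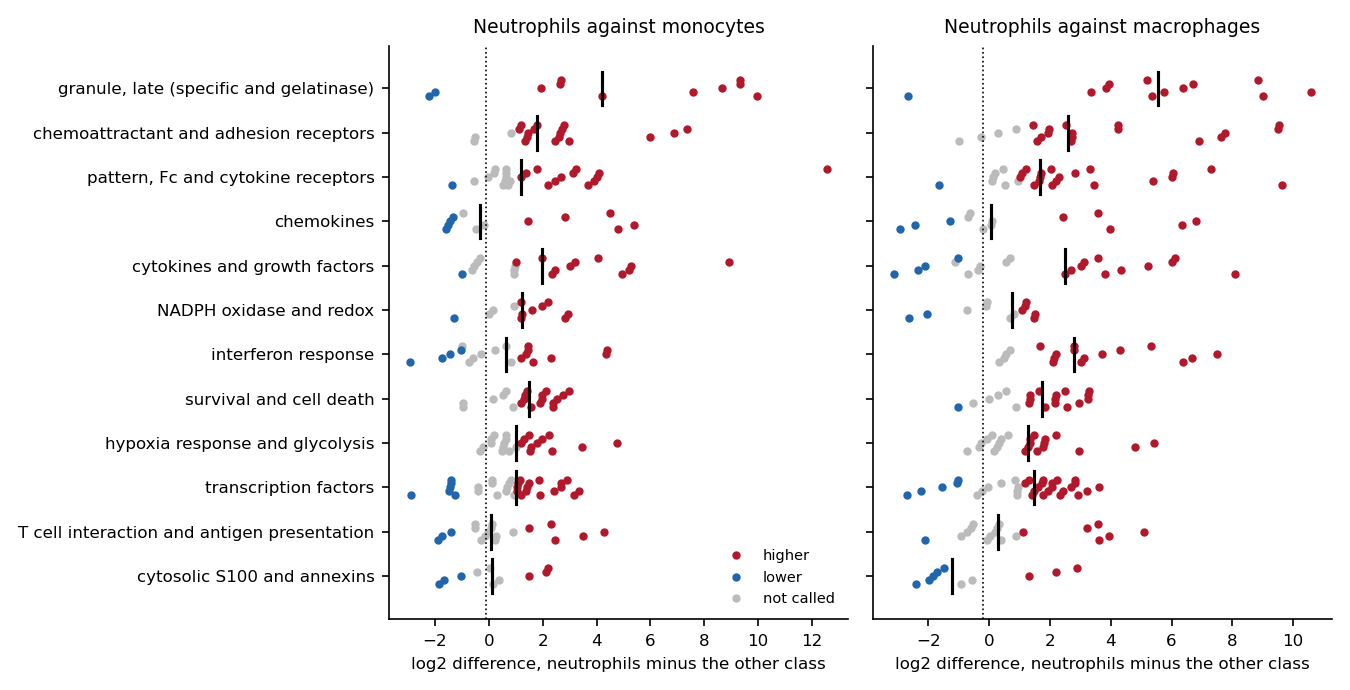
log2 difference of each tested gene of 12 lists, neutrophils minus monocytes (left) or macrophages (right). Red points were called higher, blue points lower and grey points neither, black bars are list medians and the dotted line is the median of all genes tested. Late granule genes have the highest medians, 4.20 and 5.57, and no tested receptor for chemoattractants or adhesion is blue.

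Interferon-response genes stood higher than in macrophages, with 14 higher and 0 lower of 18 tested (median 2.79), whereas against monocytes 8 were higher and 4 lower of 19 (median 0.64). The difference between the comparisons was not tested. Isg15, a ubiquitin-like protein, stood at 244, 138 and 229.6 CPM in neutrophils and 11.5, 7.29 and 12.0 CPM in macrophages (log2 4.31 ± 0.14, edgeR adjusted p = 8e-10). Slfn4 and Ifitm1 were the furthest apart, at 7.49 and 6.66 against macrophages and 4.37 and 4.39 against monocytes. Ifit2 and Ifitm3 were lower than in monocytes, at -2.93 and -1.72. So the list did not move as a block: neutrophils had more of Slfn4 and Ifitm1, and less of Ifit2 and Ifitm3, than monocytes had.

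The letters of an interferon-stimulated response element (GAAA, any 2 bases and GAAA, on either strand) were found before 7 of the 17 interferon genes with an entry and before 3.04% of all genes. They overlap each other 3 times before Isg15, at chr4:156200819-156201068 (minus strand, GRCm38.p6), the earliest beginning 78 bases before the start.
Isg15: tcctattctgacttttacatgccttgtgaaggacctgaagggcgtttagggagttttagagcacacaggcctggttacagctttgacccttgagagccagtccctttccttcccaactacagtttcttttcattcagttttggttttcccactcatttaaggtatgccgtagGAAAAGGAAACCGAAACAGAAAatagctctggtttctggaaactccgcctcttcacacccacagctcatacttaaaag

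Genes of survival and cell death were mostly higher, 14 of 20 against monocytes with none lower and 14 of 20 against macrophages with 1 lower, and they included both sides of the balance. Without the large barcodes 15 were higher and 3 lower than in monocytes, and 16 and 2 than in macrophages. Mcl1 and Bcl2a1b, which protect from apoptosis, were higher by 1.42 and 2.37 over monocytes, and Bcl2l11, which promotes it, by 1.89. The death receptor Fas was higher by 2.99 and 3.24. Bcl2a1a, Bcl2a1b and Bcl2a1d are near copies of each other whose counts can be split between them.

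In the list of hypoxia response and glycolysis, 11 of 23 genes were higher than in monocytes and 13 of 23 than in macrophages, and none was lower. The members that were highest above the others were the glucose transporter Slc2a3 (log2 4.77 and 5.43) and Egln3, a prolyl hydroxylase induced by low oxygen (3.45 and 4.81). Ldha, the enzyme that makes lactate, was not among them: it stood at 264, 272 and 286 CPM against 312, 362 and 314 CPM in macrophages (log2 -0.26 ± 0.13, edgeR adjusted p = 0.098). Ptgs2, the inducible cyclooxygenase, stood at 1265, 956 and 1142 CPM against 30.7, 21.9 and 47.9 CPM (log2 5.12 ± 0.21, edgeR adjusted p = 3.9e-09). Alox5, which starts leukotriene synthesis, was higher by 3.92 and 1.61, while the macrophage genes Tbxas1 and Ltc4s stood at -1.51 and -2.43.

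The NADPH oxidase, which makes the oxidative burst, was unequal among its subunits. Cybb, its membrane catalytic subunit, stood at 330.2, 484 and 452 CPM in neutrophils and 1496, 1755 and 1887 CPM in macrophages (log2 -2.03 ± 0.16, edgeR adjusted p = 5.9e-07), and at -1.30 against monocytes. The cytosolic subunit Ncf1 was called against monocytes only, at 1.96 and -0.06. Of the antioxidant genes in the list, Hmox1 was higher by 2.82 and 1.20 and Txnrd1 by 2.19 and 1.18. Sod2, Gclm and Srxn1 were called against monocytes, at 1.19, 2.93 and 1.62, but not against macrophages, at 0.80, 0.68 and -0.10. Sod2 and Gclm were called there without the large barcodes, at 1.31 and 1.19, and Hmox1 then stood at 1.84. In the whole list, 8 were higher and 1 lower of 12 against monocytes, and 5 and 2 of 12 against macrophages.

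Proteases and their inhibitors went in both directions, 7 higher and 1 lower of 15 against monocytes and 3 higher and 6 lower of 17 against macrophages. Among all genes, 20.1% were higher and 16.4% lower than in monocytes, and 22.2% and 23.8% than in macrophages, so the 3 higher ones do not exceed that share. Stfa2l1, a cytosolic inhibitor of cysteine proteases with near copies beside it in the genome, was the highest above macrophages, at 972, 897 and 663 CPM against 1.20, 0.405 and 0.350 CPM (log2 10.18 ± 0.26, edgeR adjusted p = 1.5e-10). The matrix metalloproteinase Mmp19 stood at -1.87 and -3.39, and at -3.42 and -4.97 without the large barcodes. Without them 9 of the list were higher and 2 lower of 14 against monocytes, and 4 and 5 of 17 against macrophages. Among cytosolic S100 proteins and annexins, S100a6 and S100a11 were higher and S100a4 and S100a10 lower in both comparisons. S100a4 stood at 465, 585 and 602 CPM in neutrophils and 2124, 2272 and 2054 CPM in macrophages (log2 -1.98 ± 0.16, edgeR adjusted p = 1.1e-06), and the difference was -4.52 without the large barcodes.

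Of transcription factors, 16 were higher and 6 lower of 32 against monocytes and 20 and 5 of 33 against macrophages. The shares of all genes were 20.1% and 16.4%, and 22.2% and 23.8%, so only the counts of higher factors stood well above them. The higher ones included Klf2 (3.36 and 2.69), Cebpb (1.20 and 1.95), Nfkbiz (3.18 and 3.62) and the NF-kB feedback inhibitor Nfkbia (2.89 and 3.23). Maf, which acts in macrophages, stood at 43.8, 33.5 and 60.7 CPM against 141, 119 and 134 CPM in macrophages (log2 -1.56 ± 0.16, edgeR adjusted p = 7.1e-06), and at -1.42 against monocytes. These differences were -2.58 and -2.42 without the large barcodes. Of cell cycle genes, 7 of 13 were lower than in macrophages, and Top2a, Cdk1, Rrm2, Stmn1 and Mcm6 among them were not called without replicate 1. Of 12 tested without the large barcodes 11 were lower, and the median went from -1.10 to -2.84.

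Genes by which leukocytes speak to T cells were mixed, 5 higher and 3 lower of 18 against monocytes and 6 and 1 of 18 against macrophages. Over all genes tested, 20.1% were higher and 16.4% lower than in monocytes, and 22.2% and 23.8% than in macrophages. Cd274, which encodes the checkpoint ligand PD-L1, stood at 514, 377 and 432 CPM in neutrophils and 38.9, 37.9 and 32.0 CPM in macrophages (log2 3.60 ± 0.15, edgeR adjusted p = 4.2e-09). Arg2, the mitochondrial arginase, stood at 846, 712 and 659 CPM against 19.9, 22.8 and 21.8 CPM (log2 5.10 ± 0.17, edgeR adjusted p = 8.6e-10), while Arg1, the arginase of alternatively activated macrophages, was lower at -2.10, and at -4.14 without the large barcodes. MHC class II genes depended on the large barcodes. H2-Ab1 stood at 0.10 against monocytes with them and at -2.85 without them, and Cd74 at -0.15 and -2.89. Called lower without the large barcodes were 7 of 18 genes against monocytes and 6 of 18 against macrophages. These counts are near the shares of all genes called lower in that setting, 30.6% against monocytes and 34.9% against macrophages.

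Genes outside the lists were named by the size of their difference, at 50 CPM or more on the higher side. The largest above macrophages were Cstdc4, Nlrp12, Asprv1, Gm39321, Chil1, Mrgpra2a, 4732465J04Rik, Lypd6b, Rdh12 and G0s2. Asprv1, a retroviral-like aspartic protease, stood at 672, 681 and 357 CPM against 0.578, 0.135 and 0.292 CPM (log2 10.42 ± 0.25, edgeR adjusted p = 1.1e-10). G0s2, an inhibitor of fat breakdown, stood at 1543, 1048 and 1248 CPM against 5.30, 1.08 and 2.33 CPM (log2 8.77 ± 0.28, edgeR adjusted p = 7e-10). Far below macrophages were H2-M2, Mt3, Akr1b8, Fxyd2, Ksr2, Wfs1, Mfge8, Lyz1, F7 and Mical2, at log2 differences from -6.90 to -3.91. The largest above monocytes were Asprv1, Cstdc4, Chil1, Mrgpra2a, 4933432I03Rik, Slc40a1, G0s2, Gm26535, Rdh12 and H2-Q10, at log2 differences from 11.18 to 7.80. Below monocytes the largest were Vcan, Dmkn, Plcb1, Retnla, Fcgr1, Msr1, Ms4a4c, Zfyve9, Ms4a6b and Ifi211, from -4.09 to -3.09. Of these, Plcb1, Fcgr1, Ms4a4c, Zfyve9 and Ms4a6b moved the most without the large barcodes, to -5.92, -5.78, -5.75, -4.95 and -4.92. Vcan, a matrix proteoglycan that monocytes make, stood at 34.4, 34.8 and 9.84 CPM in neutrophils and 551, 520.2 and 284 CPM in monocytes (edgeR adjusted p = 1.8e-09).

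Neutrophils differed among themselves. To compare barcodes of unequal depth, each of the 792 barcodes with at least 2000 UMIs was thinned at random to 2000 UMIs, which left out 19, 11 and 7 shallower ones. At that depth Cxcl2 was found in 97.5%, 95.3% and 97.0% of neutrophils (8.40%, 5.50% and 6.30% of fibroblasts, thinned alike) and Il1b in 93.2%, 91.5% and 94.8% (2.30%, 1.20% and 1.00%). Il1f9 was found in 73.4% ± 3.08 and Ccl3 in 60.2% ± 2.84 (mean ± SD, n = 3). Retnlg was found in 53.2%, 45.0% and 46.3%, Cxcr2 in 47.5%, 38.8% and 42.5%, and Cd274 in 38.2%, 32.2% and 36.6%, with 1.60% or less in fibroblasts. Before thinning, the mean shares were 62.1% for Retnlg, 59.7% for Cxcr2 and 55.3% for Cd274.

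Some transcripts were rare or no commoner than in fibroblasts. Siglecf, reported on tissue neutrophils in some diseases, was found in 0.50%, 0.388% and 0.746% of neutrophils, and Nos2, the inducible nitric oxide synthase, in 0.50%, 0.388% and 0%. The 0% is 0 of 134 barcodes, with an exact 95% upper bound of 2.72% on the share with a UMI at this depth, not on the share that transcribes the gene. Arg1 was found in 0.50%, 1.16% and 0% of neutrophils and 1.60%, 1.00% and 1.40% of fibroblasts, and the proliferation gene Mki67 in 1.25%, 0.775% and 0.746% against 1.80%, 1.80% and 1.30%. Ifit3, which was called higher than in macrophages, was found in 0.25%, 1.16% and 2.99% of neutrophils and 4%, 2.2% and 3.7% of fibroblasts. No expression in neutrophils is read from these shares. Isg15 was found in 20.1% ± 1.13 of neutrophils and in 9.23% ± 2.41 of fibroblasts.

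The leading axis of variation had the same ends in all 3 libraries. Principal components were computed in each library alone on thinned counts of 2410 genes, on the log2(count + 1) scale, without the gate genes and without mitochondrial and ribosomal protein genes. Its sign was set so that Retnlg is positive. The first component held 6.86%, 7.13% and 7.19% of the variance, and the next 2.83%, 3.63% and 3.74%. At its positive end Antxr2, a receptor for collagen VI and anthrax toxin, ranked at the top in every library, with Il1r2 and Actg1 (gamma actin) next, and Hdc (histidine decarboxylase) and Retnlg on the same side. At its other end Ftl1 (ferritin light chain), Ccl3 and Cxcl2 took the outermost places in this order in every library, with Fth1, Ccl4, Il1f9, Cstb and Sqstm1 near them. The axis is a description of these barcodes, and its genes were named after their loadings had been seen.

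**Figure D4:**
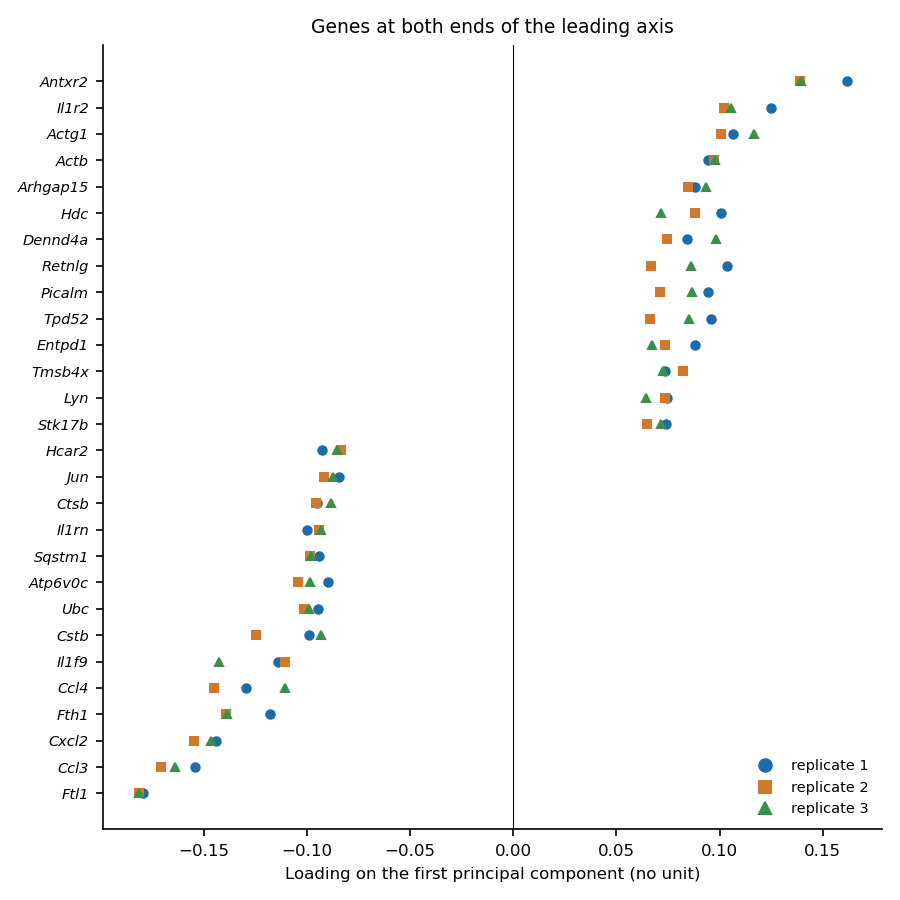
Loading of the 14 outermost genes at each end of the first principal component of thinned neutrophils, computed apart in each library (circle, square and triangle for replicates 1, 2 and 3). Antxr2, Il1r2, Actg1 and Retnlg lie at the positive end and Ftl1, Ccl3, Cxcl2 and Fth1 at the negative end in all 3 libraries.

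Retnlg served to split the members. Of the thinned barcodes, 163, 83 and 45 (40.8%, 32.2% and 33.6%) had at least 2 Retnlg UMIs and were called positive, 187, 142 and 72 (46.8%, 55.0% and 53.7%) had none and were called negative, and the 100 with 1 UMI were left out. The median UMIs were 6074, 4674 and 5413 in positive and 5472, 4381 and 5924.5 in negative barcodes. Their S100 medians were 933, 853 and 821 per 10000 against 366, 290 and 344, a description only, since these genes chose the members. Large barcodes gave 19.8%, 27.7% and 14.7% of the UMIs of positive and 34.6%, 34.8% and 37.8% of those of negative barcodes.

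Of 5706 genes tested between the sides, 322 were higher in positive neutrophils (5.64%) and 328 lower (5.75%), with a median log2 difference of -0.03. Without the large barcodes 271 of 3903 were higher (6.94%) and 181 lower (4.64%). The counts fell to 168 higher and 86 lower without replicate 1, which held the most barcodes. Late granule genes went with Retnlg: 5 of 9 were higher and 0 lower, at a median of 1.55, and 6 of 9 without the large barcodes. Mmp8 stood at 298, 200.04 and 303 CPM in positive and 30.5, 27.9 and 13.3 CPM in negative neutrophils (log2 3.38 ± 0.26, edgeR adjusted p = 1.5e-06). Lcn2 stood at 1350.1, 1047 and 836 CPM against 286, 233 and 217 CPM (log2 2.13 ± 0.13, edgeR adjusted p = 2.7e-07), and Wfdc21 and Mmp9 were higher by 2.84 and 1.55. Slpi was not called, at 3435, 2994 and 3474 CPM and 3284, 3199 and 3311 CPM (log2 0.01 ± 0.10, edgeR adjusted p = 0.94).

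Receptors of circulating neutrophils were also higher on the positive side, though fewer held without the large barcodes. Il1r2 stood at 3307, 2439 and 2999 CPM against 789, 696 and 685 CPM (log2 2.00 ± 0.11, edgeR adjusted p = 1.4e-07). Cxcr2 stood at 925, 675 and 680.1 CPM against 284, 213 and 297 CPM (log2 1.54 ± 0.15, edgeR adjusted p = 9.9e-06). Both were called without the large barcodes as well, at 1.69 and 1.11. Fpr1, Ccr1 and Trem1 stood at 1.23, 1.01 and 1.03 with all members and at 0.82, 0.63 and 0.60 without them, the latter under the 2-fold limit. Ccr1 and Trem1 also fell under it without replicate 3 (0.97 and 0.98), and Ccr1 without replicate 2 (0.96). In total 4 of 19 guidance and adhesion receptors were higher and 0 lower, and 7 of 25 other receptors were higher and 1 lower. Without the large barcodes 1 was higher and 1 lower of 19, and 1 and 1 of 25. These last counts are near the shares of all genes called in that setting, 6.94% higher and 4.64% lower.

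The interferon list had 6 of 15 genes higher on the positive side and 0 lower, at a median of 0.83, and 4 of 15 without the large barcodes. Isg15 stood at 334, 181 and 303 CPM against 116, 73.1 and 122 CPM (log2 1.40 ± 0.17, edgeR adjusted p = 7.2e-05). Of chemokines, Ccl6 was higher, at 1209, 772 and 1086 CPM against 268, 355 and 287 CPM (log2 1.74 ± 0.18, edgeR adjusted p = 1.6e-05). Outside the lists the largest differences above the negative side were those of Scrg1, R3hdm4, Rnf144a, Il18, Dgat1, Ddx60, AW011738, Rab44, Slc27a4 and Mctp2. Dgat1, which makes triglycerides, stood at 940.0, 579 and 672 CPM against 143, 163 and 100.0 CPM (log2 2.42 ± 0.19, edgeR adjusted p = 1.5e-06).

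Lower on the positive side with all members were 5 of 16 genes of antigen presentation and T cell interaction, and markers of monocytes (4 of 5 tested) and macrophages (3 of 7). H2-Ab1 stood at 67.8, 170.2 and 201 CPM against 487, 689 and 1104 CPM (log2 -2.43 ± 0.18, edgeR adjusted p = 8.8e-07), and Fn1 and Apoe at -2.40 and -1.92. Without the large barcodes these 3 stood at -0.40, -0.60 and 0.02, and none of the monocyte or macrophage markers still tested was called. In that setting 3 of 16 genes of antigen presentation and T cell interaction were called lower, beside 4.64% of all genes tested. Of the 10 genes outside the lists that were furthest below (Ccl24, Myof, Cd36, H2-DMa, Lpl, Lyz1, Ptgr1, Rnf217, Nrp1 and Fam129b), 7 then fell under the filter on low counts. Lpl and Ptgr1 were still called, at -1.41 and -2.94, and Cd36 was not, at -1.04.

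Among the 263 positive and 349 negative barcodes of up to 10000 UMIs, 208 of the 271 genes higher on the positive side and 86 of the 181 lower ones had also been called with all members. CPM is given here without further scaling. Gclm encodes a subunit of the rate-limiting enzyme of glutathione synthesis. It stood at 161, 157 and 75.9 CPM in positive and 453, 554 and 569 CPM in negative neutrophils (log2 -1.81 ± 0.20, edgeR adjusted p = 1e-06). Ftl1 stood at 5964, 6809 and 7412 CPM against 16114, 13558 and 18575 CPM (log2 -1.15 ± 0.09, edgeR adjusted p = 1.3e-08). Txnrd1, Hmox1 and Sqstm1, which respond to oxidative stress, were lower at -1.29, -1.36 and -1.24, having stood at -0.80, -0.93 and -0.78 with all members. Gclm had stood at -1.22 with all members, a call that ended without replicate 3 (-0.95). Tnf stood at 217, 459 and 594 CPM against 1025, 767 and 929.7 CPM (log2 -1.14 ± 0.21, edgeR adjusted p = 0.00041). For each of these genes the positive libraries were all below the negative ones. The genes were named after their values had been seen, and how many of all genes tested parted alike was not counted. Lyz2 was higher on the positive side, at 1.19, having stood at -0.03 with all members.

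**Figure D5:**
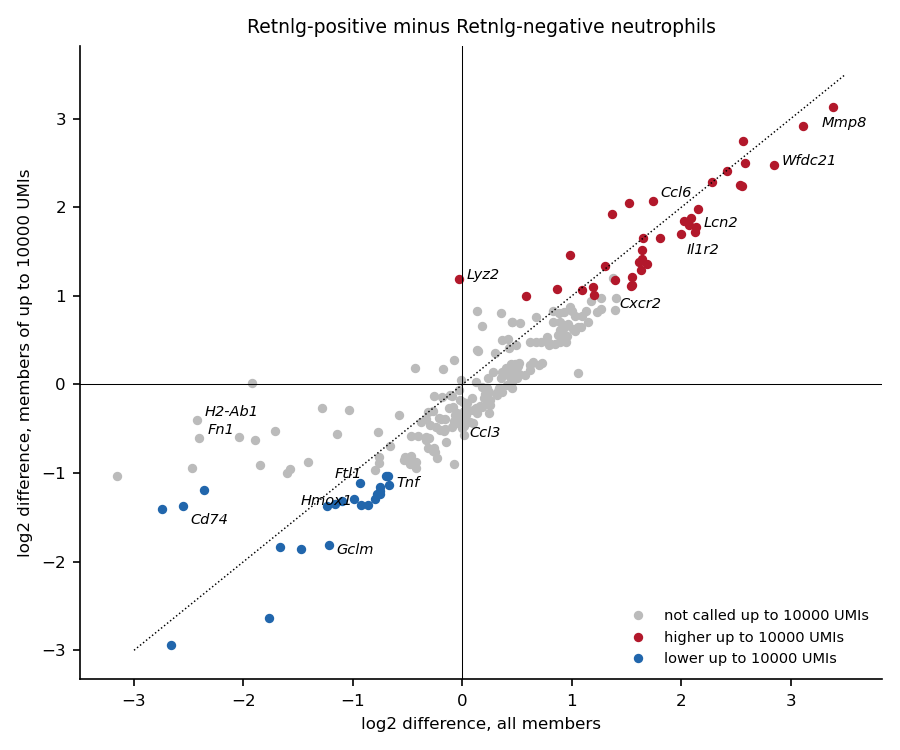
log2 difference between Retnlg-positive and Retnlg-negative neutrophils, per gene of the lists and the named genes, with all members (x axis) and with members of up to 10000 UMIs (y axis). Colours give the call up to 10000 UMIs, and the dotted line marks equal values. Mmp8, Wfdc21 and Il1r2 lie near the line, whereas H2-Ab1 and Fn1 lie at -2.43 and -2.40 on the x axis and at -0.40 and -0.60 on the y axis.

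The chemokines at the negative end of the leading axis did not part from Retnlg as sharply. Ccl3 stood at 2192, 2179 and 2807 CPM in positive and 2433, 2431 and 2267 CPM in negative neutrophils (log2 -0.00 ± 0.12, edgeR adjusted p = 0.98), and at -0.50 ± 0.10 without the large barcodes (edgeR adjusted p = 0.0015), under the 2-fold limit. Cxcl2 and Il1f9 stood at 0.01 and -0.42 with all members and at -0.47 and -0.94 without them. Counted by barcode, Ccl3 was found in 47.2%, 49.4% and 44.4% of positive and in 68.4%, 59.2% and 75.0% of negative neutrophils at equal depth. At least 2 UMIs of both genes were present in 15.2%, 11.6% and 13.4% of all thinned neutrophils. Granule and chemokine transcripts therefore occurred together in some of the same barcodes, in all 3 libraries.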

How the data were processed

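Single-cell RNA was captured with a droplet 3′ kit in 3 libraries of 1 group. The authors deposited UMI counts per gene and barcode. The file headers name Cell Ranger 7.0.0 and the submitters' processing notes name 6.1.2. Genome build and annotation: not given in the sources used here, and likewise the handling of intronic reads. The libraries held 136519688, 192348779 and 104482261 UMIs, and pairs of libraries shared 13, 13 and 10 barcode sequences.

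The members and gene lists were chosen with earlier results of these data known. Of 293 list genes 290 were in the files, and 78 rows share a symbol with another row. Counts were summed per library and class and tested with edgeR 4.0.16 (R 4.3.3; filterByExpr, TMM scaling, quasi-likelihood test, Benjamini-Hochberg adjustment), with the library as a block because both classes come from the same suspension, which left 2 residual degrees of freedom. CPM values are TMM-scaled within each comparison, except those for barcodes of up to 10000 UMIs. Among called list members, up to 4 by mean CPM and up to 2 by log2 difference in each direction were named, and outside gates and lists the 10 with the largest difference in each direction at 50 CPM or more. Other genes, and every gene named from the leading axis or up to 10000 UMIs only, were chosen after their values were seen. Thinning drew 2000 UMIs per barcode without replacement (numpy 2.4.6). Doublet scores came from scanpy 1.11.5, and scored barcodes were kept. The edgeR script was tested on simulated data. Alternatives were DESeq2 1.42.0, its size factors, no filter on low counts, no block, other gates and thinning depths, and each library left out. The limit of 10000 UMIs and another thinning draw were added after seeing the data.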

Additional observations from a re-analysis of the deposited data

How the results depend on the processing

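Genes lower than in monocytes numbered 1349, and 2306 among neutrophils of up to 10000 UMIs, 821 with DESeq2's Wald test and from 786 to 1526 with 1 library left out. Of the Retnlg sides, 322 higher genes became 203 when 1 Retnlg UMI sufficed, and from 168 to 331 with 1 library left out. The 328 lower ones became 209 with S100 genes at 50 per 10000 or more, 181 up to 10000 UMIs, 159 with DESeq2's Wald test, 115 when 1 Retnlg UMI sufficed and from 86 to 301 with 1 library left out. The lowest of these came without replicate 1, which held 419 of the 829 members.

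Higher genes were 55.0% of the calls against monocytes and 66.1% with DESeq2's Wald test. They were 48.3% against macrophages and 37.4% without a filter on low counts. Between the Retnlg sides they were 49.5%, and 59.96% up to 10000 UMIs, 60.1% with DESeq2's Wald test, 66.1% without replicate 1 and 63.8% when 1 Retnlg UMI sufficed. DESeq2's size factors moved the median of all genes against macrophages from -0.20 to -0.08. Without the replicate block, 1620 genes were higher and 1336 lower against monocytes, 2559 and 2785 against macrophages, and 313 and 288 between the Retnlg sides.

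Shares of neutrophils with a transcript follow the depth. At 1000, 2000 and all UMIs the mean shares were 38.8%, 48.2% and 62.1% for Retnlg, 51.9%, 64.7% and 79.7% for Il1r2, and 30.8%, 42.9% and 59.7% for Cxcr2. They were 92.9%, 96.6% and 98.7% for Cxcl2, 63.0%, 73.4% and 85.7% for Il1f9, and 51.7%, 60.2% and 71.6% for Ccl3. For Cd274 they were 22.6%, 35.7% and 55.3%, and for Isg15 12.8%, 20.1% and 34.2%. Where not given above, the cause of a move was not tested. Values of named genes kept their call in 1164 of 1184 cases against monocytes, 1134 of 1166 against macrophages and 790 of 919 between the Retnlg sides, and 0 reversed. The genes counted here had been picked among called genes by level or size of difference, so kept calls were likely beforehand. Settings in which a gene fell under the filter on low counts were not counted as cases. The split by Siglecf was not run, with 2, 1 and 1 positive barcodes.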

Other observations

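Markers of further cell types were low in neutrophil barcodes but not equal over the libraries. The 6 markers of mast cells and basophils summed to 0.0975, 1.53 and 0.0799 UMIs per 10000 in neutrophils of replicates 1, 2 and 3, so that replicate 2 stood apart. The 7 markers of T and NK cells summed to 0.654, 0.654 and 1.15, against 0.391, 0.413 and 0.260 in monocytes. The 6 dendritic cell markers summed to 0.455, 1.42 and 2.01. Red cell and platelet markers summed to 0.397, 1.11 and 0.230 in neutrophils and to 18.8, 17.2 and 16.0 in macrophages, where Pf4 and Ppbp were called higher. The part of these transcripts in the results was not tested.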
